A study of Mus musculus with 16 samples.

Results

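Of the 31274 genes in the deposited table, 44 were at least 2 FPKM in all 4 WT-DES seminal vesicles (SVs) and below 0.5 FPKM in all 12 WT-veh, αERKO-veh and αERKO-DES SVs. FPKM is the number of sequenced fragments of a gene scaled to the length of its transcript and to the size of the library, so the levels of different genes can be set side by side. The 44 genes, called member genes here, were chosen by these values, so their differences between groups are a description. The fit of all genes described below includes them, but no test result is read for them. With WT-veh, αERKO-veh or αERKO-DES as the group that is on, the same limits gave 0, 0 and 0 genes.

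RNA was sequenced from the SVs of male C57BL/6 mice at week 5, in 4 groups of 4 samples. WT-veh were wild-type males given corn oil alone, WT-DES wild-type males given diethylstilbestrol (DES), a synthetic oestrogen, at 2 µg per pup per day under the skin on days 1 to 5 of life, and αERKO-veh and αERKO-DES were males without functional oestrogen receptor α (ERα) given the same vehicle or DES. The comparison asks which transcripts were present weeks after neonatal DES only where ERα was present as well. The αERKO allele removes ERα from the whole animal and not from one cell type. The labels do not say whether a sample is 1 mouse or a pool. The study's methods say that RNA came from individual mice in WT-veh and both αERKO groups and from 3 pools of mice in WT-DES, but give 4 samples a group for sequencing. How the 4 WT-DES samples relate to the 3 pools is not stated. Each may be a pool and some may share one, so n = 4 counts samples as labelled, and the spreads and tests below take these as separate. *Esr1*, the gene for ERα, checks the labels. It ran from 2.81 to 4.55 FPKM in WT-veh and from 8.74 to 19.6 FPKM in WT-DES. Both αERKO groups lay below every WT sample, with 1.30 to 1.75 FPKM after vehicle and 0.91 to 1.64 FPKM after DES. The summed FPKM of all genes was 375207 to 437619 in WT-DES and 479045 to 652708 in the other samples, and the number of fragments behind it is unknown.

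The SV is an androgen-dependent gland of the male tract that secretes most of the fluid of the ejaculate, and it is lined by secretory and basal epithelial cells with few leukocytes. ERα is a ligand-activated transcription factor that DES can bind, and in the female tract oestrogen acting through it thickens and keratinizes the vaginal epithelium and draws leukocytes into the uterus. Most of the member genes belong normally to other places than the SV: neutrophils and other myeloid cells, blood vessels that admit lymphocytes, stratified squamous epithelium, the gut lining, the ovary and the epididymis.

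By what is known of each gene, 13 of the 44 are receptors or signalling proteins of myeloid cells, 6 are granule proteins, enzymes and inflammasome genes of such cells, 4 are chemokines or cytokines, 3 serve lymphocyte homing and survival, 5 respond to interferon or inflammation, 4 are epithelial, 5 belong to hormone, growth or metabolic pathways and 4 have no clear role. These 8 groups were made by hand after the members were seen. The mean level in WT-DES ran from 2.46 FPKM (*Ahrr*) to 42.4 FPKM (*Krt13*), with a median of 6.41 FPKM over the 44 genes. Summed over the 44 genes, the level was 501.4, 358.3, 278.0 and 445.7 FPKM in WT-DES samples 1 to 4. The same sum was 7.22 to 9.12 FPKM in the WT-veh samples and 6.96 to 9.08 FPKM in the αERKO-veh samples. In αERKO-DES it was 4.28 to 6.50 FPKM, so that every sample of that group lay below every vehicle sample.

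**Figure D1:**
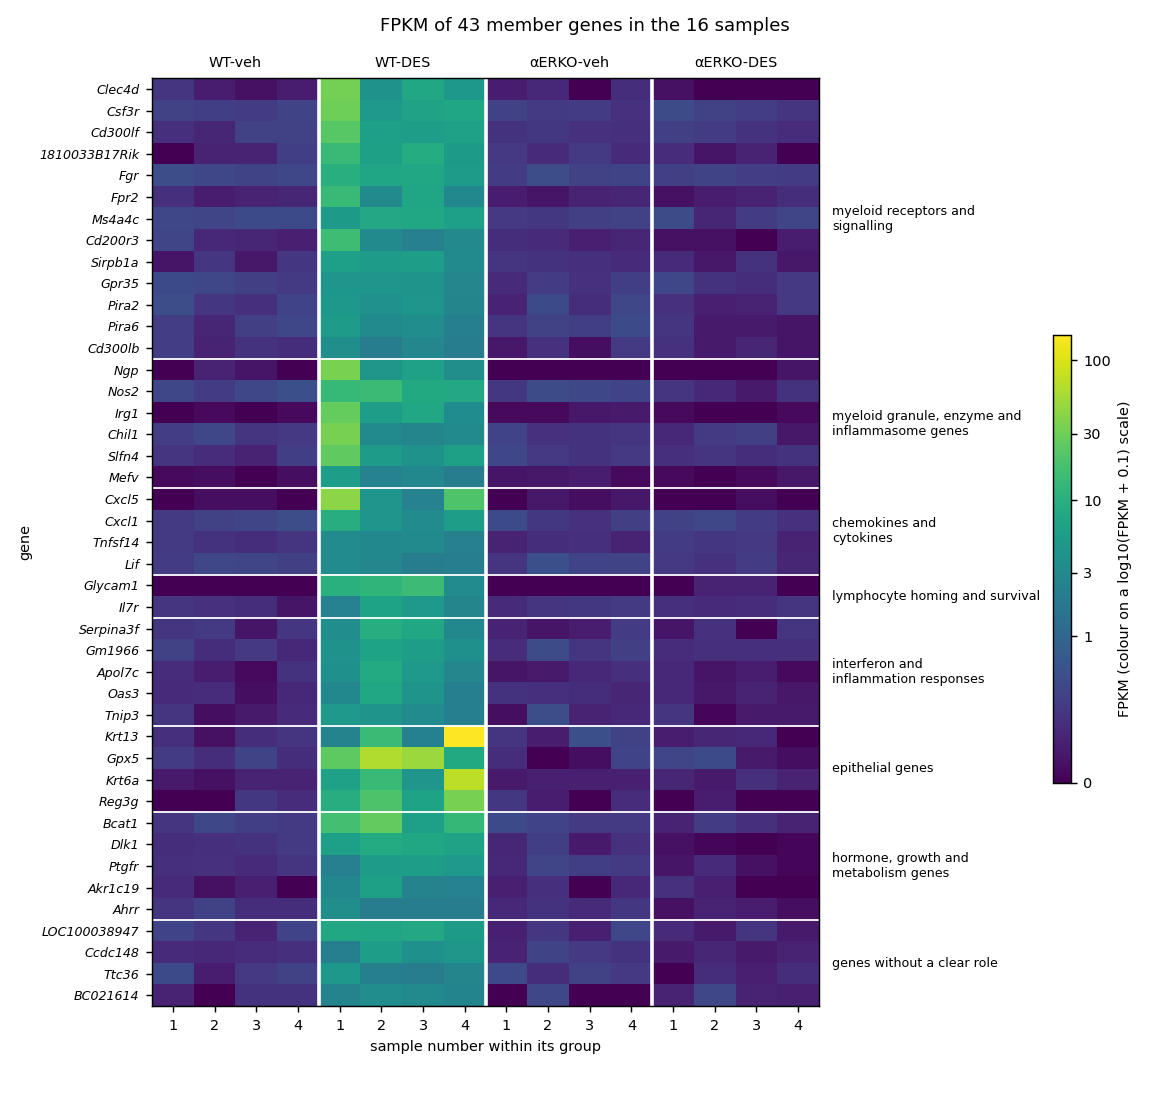
Heat map of FPKM of 43 of the 44 member genes (y axis, by group of function) in the 16 samples (x axis, 4 per group), with colour on a log10(FPKM + 0.1) scale. The WT-DES samples stand apart because the rule chose the genes for it. WT-DES sample 1 is brightest for most myeloid genes and WT-DES sample 4 for *Krt13* (150.3 FPKM) and *Krt6a* (72.2 FPKM).

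Several promoters of these genes hold short motifs of factors known in inflammatory signalling. The oestrogen motifs searched were not more frequent in them than in all promoters. RefSeq promoters (250 bases before to 50 after the start, GRCm38.p6) were matched for 36 of the 44 genes. Each line below gives a window around a motif, read on the strand of the gene, and the capitals mark the motif, which may lie on either strand.
*Cxcl1*, κB consensus, chr5:90891165-90891192, plus strand: ctgtactccGGGAATTTCCctggcccgg
*Tnip3*, κB consensus, chr6:65590335-65590362, plus strand: agacatcctGGGAAATCCCagttacatg
*Csf3r*, κB consensus, chr4:126024521-126024548, plus strand: cctgaggcaGGAAGGTCCCtagctcacc
*Oas3*, interferon-stimulated response element, chr5:120777716-120777743, minus strand: cagggaggaGAAAACGAAAgtgaaggga
*Ngp*, C/EBP, chr9:110419660-110419687, plus strand: tcctggtttaTTGCCCAAacctccttgc
*Krt13*, AP-1, chr11:100121745-100121773, minus strand: actgctccctcTGAATCAtcccttttgtt

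These windows are shown because they belong to genes of 5 of the groups described below. Searched on both strands, the full oestrogen response element GGTCANNNTGACC was in 0 of the 36 member promoters and in 0.0666% of all 27025 promoters, and its 5-base arm GGTCA was in 14 (38.9%) against 40.1% of all. The κB consensus, bound by NF-κB, was in 6 member promoters (16.7%) against 5.57% of all. The interferon element TTTCNNTTTC was in 5 (13.9%) against 3.49%, and the AP-1 motif TGANTCA in 7 (19.4%) against 7.92%. The C/EBP motif TTGCNNAA was in 5 (13.9%) against 10.7% and the PU.1 core GAGGAAGT in 3 (8.33%) against 3.25%. A match is a run of letters in the window and was not tested as a binding site.

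Myeloid receptors formed the largest group. Their best-known member is *Csf3r*, the receptor of granulocyte colony-stimulating factor, which drives neutrophil production. *Csf3r* was at 29.4, 5.21, 6.62 and 7.19 FPKM in WT-DES samples 1 to 4 and at most 0.44 FPKM elsewhere. *Clec4d*, a C-type lectin that recognises microbial glycolipids, was at 32.4, 4.02, 7.72 and 4.86 FPKM. *Cd300lf*, an immunoglobulin-like receptor of myeloid cells, was at 22.5, 6.19, 5.79 and 6.44 FPKM. In each of these genes sample 1 stood far above the other WT-DES samples. *Fpr2*, a formyl peptide receptor that guides neutrophils to bacterial products, was at 13.8, 3.26, 7.58 and 2.98 FPKM. *Cd200r3*, an activating receptor of basophils and mast cells, was at 15.4, 3.14, 2.32 and 3.06 FPKM, again with sample 1 highest. *1810033B17Rik* (*Mcemp1*, a membrane protein first described in mast cells) was at 13.6, 6.31, 9.21 and 5.33 FPKM.

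Other members of the group varied less. *Fgr*, a Src-family kinase of myeloid cells, was at 10.1, 7.36, 7.89 and 5.44 FPKM. *Sirpb1a*, an activating relative of SIRPα, was at 6.07, 5.68, 5.81 and 3.24 FPKM. *Gpr35*, a receptor of gut and immune cells, was at 4.59, 4.55, 4.30 and 2.85 FPKM, and like *Sirpb1a* it was level in 3 samples and low in sample 4. *Ms4a4c*, a four-pass membrane protein of leukocytes, was the exception in order, at 5.33, 8.15, 7.74 and 6.09 FPKM with sample 1 lowest. *Pira2* and *Pira6*, activating paired immunoglobulin-like receptors, were at 2.81 to 4.91 and 2.27 to 5.37 FPKM, and *Cd300lb*, from the same family as *Cd300lf*, at 2.13 to 3.60 FPKM. In all, 12 of the 13 receptor genes were highest in sample 1 and 7 were lowest in sample 4.

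The granule and enzyme genes of the same cells followed sample 1 more steeply. *Ngp*, neutrophilic granule protein, was at 34.2, 4.71, 6.51 and 3.59 FPKM and at most 0.10 FPKM in the 12 other samples. *Chil1*, a chitinase-like protein, was at 33.4, 3.17, 2.71 and 3.20 FPKM. *Irg1* (*Acod1*), which makes the antimicrobial metabolite itaconate, was at 26.7, 5.69, 7.83 and 3.44 FPKM and at most 0.07 FPKM elsewhere. In these genes sample 1 was above every other WT-DES sample, and the other samples did not keep a common order. *Slfn4*, a schlafen gene of myeloid cells, was at 25.0, 5.40, 4.19 and 6.38 FPKM, and *Mefv*, which encodes the inflammasome protein pyrin, at 5.90, 2.44, 2.92 and 2.04 FPKM. *Nos2*, inducible nitric oxide synthase, differed from the rest of the group at 13.2, 14.6, 8.37 and 8.09 FPKM, with samples 1 and 2 alike. Summed over both myeloid groups (19 genes), the level was 305.5, 99.3, 108.4 and 81.4 FPKM in samples 1 to 4, against at most 4.44 FPKM in any other sample.

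The chemokines and cytokines were highest in the same sample. *Cxcl5* and *Cxcl1* encode ligands of CXCR2 that attract neutrophils, and their genes lie 129617 bases apart on chromosome 5. *Cxcl5* was at 41.6, 4.60, 2.45 and 19.8 FPKM, with samples 1 and 4 well above samples 2 and 3, and at most 0.06 FPKM elsewhere. *Cxcl1* was at 9.53, 4.46, 3.35 and 5.76 FPKM, in the same order of samples as *Cxcl5*. *Lif*, a cytokine of the interleukin-6 family that oestrogen induces in uterine glands, was at 3.31, 2.87, 2.07 and 2.16 FPKM. *Tnfsf14* (LIGHT), a ligand of the lymphotoxin β receptor, was at 3.35, 2.94, 3.13 and 2.35 FPKM. The last 2 genes were low and nearly level across the 4 samples.

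**Figure D2:**
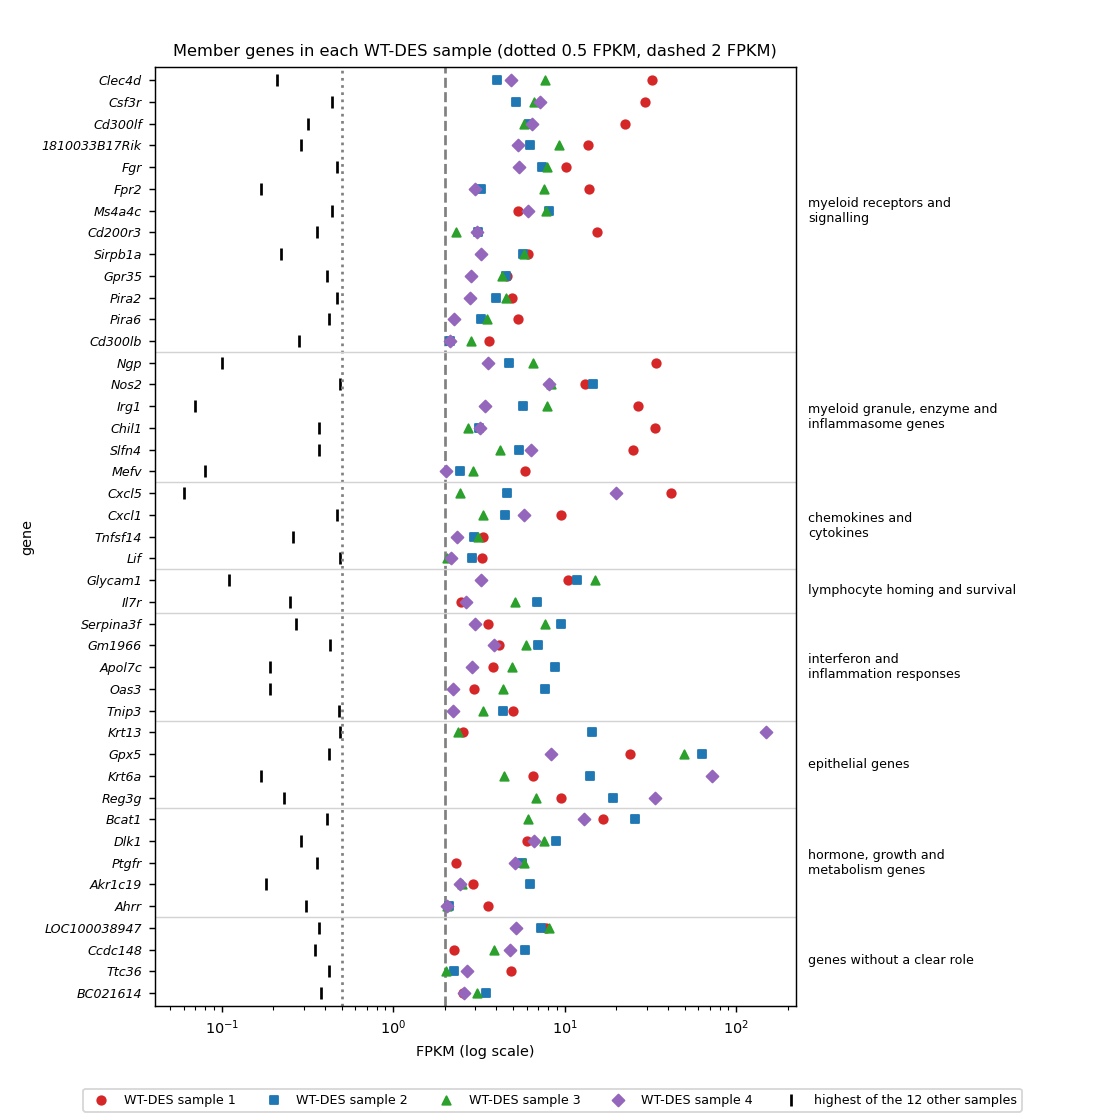
FPKM (x axis, log scale) of 43 of the member genes (y axis) in WT-DES samples 1 to 4 (coloured points) and the highest value of the 12 other samples (black bar), with the limits of the rule at 0.5 and 2 FPKM as vertical lines. Myeloid genes extend to the right in sample 1, as *Ngp* at 34.2 FPKM, and keratins in sample 4.

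Of the lymphocyte genes, *Glycam1*, a mucin-like glycoprotein of high endothelial venules (the vessels by which lymphocytes enter lymph nodes), was at 10.4, 11.8, 15.1 and 3.27 FPKM and at most 0.11 FPKM elsewhere. Sample 4 was lowest, and the other samples lay close together. *Il7r*, the interleukin-7 receptor that T cells need to survive, had another order, at 2.47, 6.92, 5.16 and 2.66 FPKM, with samples 2 and 3 above samples 1 and 4.

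Of the genes of interferon and inflammation responses, 4 of 5 were highest in sample 2 and all 5 were lowest in sample 4. *Oas3*, an antiviral oligoadenylate synthetase, was at 2.94, 7.71, 4.35 and 2.23 FPKM. *Apol7c*, an apolipoprotein L gene, was at 3.83, 8.72, 4.95 and 2.86 FPKM, and *Serpina3f*, a serine protease inhibitor, at 3.55, 9.48, 7.66 and 2.98 FPKM. *Gm1966*, listed as an unprocessed pseudogene in GENCODE M21, was at 4.16, 6.95, 5.92 and 3.85 FPKM. *Tnip3*, an inhibitor of NF-κB signalling, was highest in sample 1 instead, at 4.98, 4.37, 3.34 and 2.24 FPKM.

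The epithelial genes had the widest spread between WT-DES samples, with a median ratio of highest to lowest sample of 11.9, and 3 of the 4 were highest in sample 4. *Krt13* is the keratin of the upper layers of moist stratified epithelia such as the oesophagus and vagina, and *Krt6a* is a keratin of proliferating and wounded epidermis. *Krt13* was at 2.56, 14.5, 2.39 and 150.3 FPKM, a mean of 42.4 ± 72.1 FPKM (SD, n = 4), with a median of 8.54 FPKM and a mean of 6.49 FPKM over samples 1 to 3 alone. *Krt6a* was at 6.49, 14.0, 4.44 and 72.2 FPKM, with a median of 10.3 FPKM and samples 4 and 2 again above the rest. *Reg3g*, a bactericidal lectin of the gut lining, was at 9.57, 19.1, 6.79 and 33.7 FPKM, also highest in sample 4 and then in sample 2. The ratio of highest to lowest WT-DES sample was 62.9 for *Krt13*, against a median of 2.81 over the 44 genes, and it was under 2 for 14 genes and over 5 for 11 genes.

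*Gpx5* encodes a secreted glutathione peroxidase of the epididymis, the duct in which sperm mature. It was at 24.1, 63.4, 49.4 and 8.37 FPKM in WT-DES samples 1 to 4 and at most 0.42 FPKM in the 12 other samples. Samples 2 and 3 were highest, and sample 4, the highest for the keratins, was lowest. Among the 34 other genes of an epididymis and vas deferens list, 17 were below 0.5 FPKM in all 16 samples. Of 13 tested genes of that list 2 rose in WT-DES, *Cst11* (0.41 ± 0.31 to 16.97 ± 8.72 FPKM, SD, n = 4) and *Spag11b*, an antimicrobial peptide gene (0.03 ± 0.05 to 6.01 ± 8.14 FPKM), and 4 fell, with the largest fall by ratio in the defensin gene *Defb15* (4.50 ± 1.27 to 0.13 ± 0.15 FPKM). These are 15.4% higher and 30.8% lower, against 28.9% and 23.9% of all tested genes. *Cst11*, a cystatin gene, was at 10.3, 26.1, 22.8 and 8.78 FPKM in samples 1 to 4, with samples 2 and 3 highest as for *Gpx5*. *Spag11b* was at 5.01, 17.8, 0.48 and 0.73 FPKM, so sample 2 carries most of its mean.

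**Figure D3:**
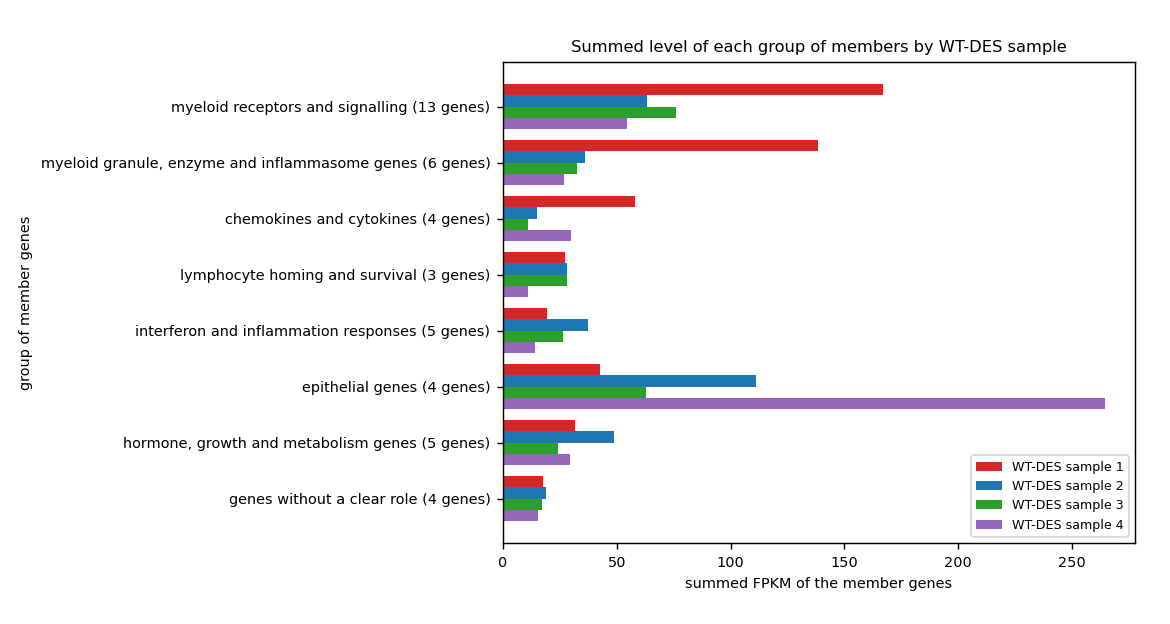
Summed FPKM (x axis) of the member genes in each group of function (y axis) in WT-DES samples 1 to 4 (coloured bars). Sample 1 leads both myeloid groups (167.1 and 138.4 FPKM) and the chemokines and cytokines, sample 4 leads the epithelial genes (264.6 FPKM), and sample 2 leads the interferon group (37.2 FPKM).

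Among hormone, growth and metabolism genes *Bcat1*, a branched-chain amino acid transaminase, was highest at 16.6, 25.7, 6.09 and 13.0 FPKM. *Dlk1*, an imprinted gene of fetal tissues and fat precursors, was at 6.03, 8.92, 7.60 and 6.63 FPKM, one of the most even members. *Ptgfr*, the prostaglandin F receptor of the corpus luteum and uterus, was at 2.33, 5.64, 5.82 and 5.14 FPKM with sample 1 lowest. *Akr1c19*, an aldo-keto reductase, was at 2.92, 6.30, 2.52 and 2.44 FPKM, and *Ahrr*, the repressor of the aryl hydrocarbon receptor, at 3.59, 2.10, 2.07 and 2.07 FPKM. *Akr1c19* stood out in sample 2 and *Ahrr* in sample 1, with the other samples close together. Of the genes without a clear role, *LOC100038947* was at 5.22 to 8.06, *Ccdc148* at 2.25 to 5.89, *BC021614* at 2.54 to 3.49 and *Ttc36* at 2.03 to 4.84 FPKM.

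Several members lay close to the limits that chose them. Just inside the upper limit were *Krt13*, *Lif* and *Nos2*, each at 0.49 FPKM in its highest sample outside WT-DES, then *Tnip3* (0.48 FPKM) and *Cxcl1* (0.47 FPKM). Just outside it were *Arhgap40*, *Kmo* and *Misp* at 0.50 FPKM and *Abcg3* and *Ubd* at 0.51 FPKM. *Ubd*, a ubiquitin-like gene induced by inflammatory cytokines, was left out for 1 αERKO-DES sample although its mean in WT-DES was 78.3 FPKM. At the lower limit, *Ttc36* (2.03), *Mefv* (2.04), *Ahrr* and *Lif* (2.07) and *Cd300lb* (2.13 FPKM) were just inside in their lowest WT-DES sample. *Gpr171* (1.98), *Atp8b4* and *BC048679* (1.97), *Clec4e* (1.94) and *Nxpe5* (1.92 FPKM) were just outside. In all, 14558 genes were below 0.5 FPKM in the 12 other samples, and 186, 89, 44 and 44 of these reached 2 FPKM in 1, 2, 3 and 4 WT-DES samples. Those that reached it in 1 sample did so 70 times in sample 1, 52 in sample 2, 15 in sample 3 and 49 in sample 4.

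None of the 44 genes was listed at 0 in all 12 other samples, but *Glycam1* was at 0 in 10 of them and *Ngp* in 9. In those samples 3 genes (*Cxcl5*, *Irg1* and *Mefv*) stayed below 0.1 FPKM. With unknown depth, such values do not tell whether a gene was on at a low level or silent. When all genes were fitted, the 44 were called higher after DES in WT and 0 of them were called in αERKO, as the rule fixed. Of the 15988 tested genes, 28.9% were called higher in WT. In αERKO 1.49% were called, with 0.0876% higher and 1.41% lower (limma, adjusted p of at most 0.05 and 1.5-fold). The 2 comparisons share no samples, but the model estimates a single spread for each gene over all 16 samples. A wide spread in WT-DES thus also makes a call in αERKO less likely.

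Related genes that the rule left out were counted from 16 lists of markers and pathways, chosen with earlier results of these data known. Over all tested genes, 28.9% were called higher and 23.9% lower in WT, and 1.49% in αERKO. With a share that small, 0 calls in αERKO in a list of this size is near the background and is no result about its genes. Among granulocyte genes, which hold 8 members, 29 of 34 tested non-members rose with DES in WT and 1 fell, with a median log2 change of 1.59 against −0.01 over all genes tested. In αERKO, 0 of the 34 passed in either direction (limma, 1 at an unadjusted p under 0.05). List genes are named here by the ratio of group means, which puts genes at or near 0 in WT-veh first, so the risers named are not always those with the largest log2 change. In this list they were *Trem1*, a receptor that amplifies neutrophil activation (listed at 0 in WT-veh and 2.06 ± 2.51 FPKM in WT-DES, SD, n = 4), and *Cxcr2*, the receptor of the products of *Cxcl1* and *Cxcl5* (0.01 ± 0.01 to 5.74 ± 7.70 FPKM). *Cxcr2* was at 17.1, 0.74, 1.25 and 3.88 FPKM in WT-DES samples 1 to 4, so sample 1 carries most of its mean. The one fall was in *Ccl11*, an eosinophil attractant (46.4 ± 2.7 to 27.3 ± 9.0 FPKM). That call was lost with equal totals and with quantile normalization, and *Ccl11* was also lower in αERKO-DES than in αERKO-veh (24.7 against 37.6 FPKM) without passing the test. The difference between genotypes did not pass either (limma, adjusted p = 0.581).

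The summed level of the 46 non-member granulocyte genes was 1412, 251.8, 236.8 and 547.8 FPKM in WT-DES samples 1 to 4 and 49.7 to 106.6 FPKM in the 12 other samples. *S100a8*, a defining neutrophil gene chosen here after its values were seen, was at 371.3, 47.8, 44.7 and 85.5 FPKM in WT-DES. The sum was thus highest in sample 1, but not every gene of the list was highest there, and *Ccl11* was lowest. In bulk tissue, more cells of a type and more RNA per cell cannot be told apart, and the part of such cells in the myeloid members was not tested.

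Macrophage and dendritic genes, which hold *Nos2*, rose in 37 of 38 tested non-members in WT and 1 fell (median log2 change 2.02), and 0 passed in αERKO by limma (4 at an unadjusted p under 0.05). Their summed level was nearly even, at 1156, 1381, 1334 and 1059 FPKM in WT-DES samples 1 to 4, against 153.3 to 377.6 FPKM elsewhere. Of 27 tested inflammatory cytokine genes, the list of *Lif*, 26 rose in WT and 0 passed in αERKO (limma, 1 at an unadjusted p under 0.05). Of all tested genes, 28.9% were called higher in WT and 1.49% were called in αERKO. The risers named by ratio in these lists were *Chil3*, a chitinase-like protein of macrophages (0.09 ± 0.06 to 9.87 ± 15.97 FPKM, SD, n = 4), *Il12b*, an interleukin-12 subunit, and the interleukin-1 family genes *Il1f6* and *Il1f9*. *Lyz1*, a lysozyme gene, was the one that fell (27.1 ± 2.4 to 11.5 ± 4.0 FPKM).

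Lymphocyte lists rose as well but with another order of samples. The shares of all tested genes to set beside them are 28.9% higher and 23.9% lower in WT and 1.49% called in αERKO. Among T and NK cell genes, 45 of 53 tested non-members rose in WT, 4 fell and 0 passed in αERKO (limma, 1 at an unadjusted p under 0.05). Their summed level was 151.4, 581.5, 504.8 and 207.7 FPKM in WT-DES samples 1 to 4, with samples 2 and 3 highest as for *Il7r*, and 124.7 to 195.8 FPKM in the other samples, which overlap sample 1. Of 22 tested genes of high endothelial venules and lymphoid tissue, the list of *Glycam1* and *Tnfsf14*, 20 rose in WT and 1 fell in αERKO. The risers named by ratio were *Ubd* and *Ccl20*, a lymphocyte-attracting chemokine at 0.02 FPKM in WT-veh and 1.48 FPKM in WT-DES. The sum of all non-members of that list was 212.0, 402.2, 310.6 and 194.1 FPKM in WT-DES and at most 53.8 FPKM elsewhere. In the T cell list the risers named by ratio were *Ctla4* and *Cd6*, which encode T cell surface proteins and were at 0.01 and 0.12 FPKM in WT-veh. *Skap1*, an adaptor gene, had the largest fall by ratio (29.7 ± 3.8 to 6.62 ± 2.09 FPKM, SD, n = 4).

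Squamous epithelium genes, the list of *Krt13* and *Krt6a*, rose in 39 of 63 tested non-members in WT, 3 fell and 21 were not called, and 1 fell in αERKO. The shares over all tested genes were 28.9% higher and 23.9% lower in WT and 1.41% lower in αERKO. The list sum did not follow the keratin members. It was 4433, 2056, 1439 and 3241 FPKM in WT-DES samples 1 to 4, highest in sample 1, against 505.6 to 995.6 FPKM elsewhere. A sum weighs the most abundant genes most, here *Sprr2a1* and *Sprr1a* with WT-DES means of 554.8 and 390.7 FPKM. It does not show the order of samples in most genes of the list. Single genes of the list, chosen after their values were seen, differed in order, and they do not show how common either order was. *Krt6b*, the close relative of *Krt6a*, was at 1.53, 5.83, 0.58 and 72.0 FPKM and the epidermal keratin gene *Krt1* at 1.41, 2.15, 1.24 and 24.6 FPKM, both highest in sample 4. *Sprr1a*, a cornified envelope gene, was at 831.8, 218.9, 159.9 and 352.5 FPKM and *Ivl*, involucrin, at 181.2, 25.9, 26.8 and 32.3 FPKM, both highest in sample 1. Of the called risers listed at 0 in WT-veh, *Sprr2i* and *Sprr2e*, 2 further envelope genes, had the highest WT-DES means, 4.16 and 3.31 FPKM. *Sprr2i* was at 4.39, 2.57, 0 and 9.67 FPKM and *Sprr2e* at 2.41, 2.68, 0.32 and 7.82 FPKM, so sample 4 raised both means. *Sprr3*, also listed at 0 in WT-veh, had a mean of 12.9 FPKM in WT-DES but was not called. The largest fall by ratio was in *Gsdma*, a gasdermin gene (137.2 ± 11.2 to 3.65 ± 2.39 FPKM, SD, n = 4).

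Female tract and oestrogen-induced genes, the list of *Lif* and *Krt13*, rose in 38 of 63 tested non-members in WT and fell in 7, and 0 passed in αERKO (limma, 7 at an unadjusted p under 0.05). These are 60.3% higher and 11.1% lower in WT, against 28.9% and 23.9% of all tested genes, of which 1.49% were called in αERKO. *Sprr2f*, an oestrogen-induced gene of the uterus, rose from 2.99 ± 2.80 to 282.7 ± 132.9 FPKM (SD, n = 4), and *Prss28*, a serine protease of the uterus, fell from 2.48 ± 0.23 to 0.08 ± 0.08 FPKM. Of 35 tested mucosal defence genes, the list of *Reg3g*, *Nos2* and *Chil1*, 23 rose in WT, 7 fell and 0 passed in αERKO (limma, 7 at an unadjusted p under 0.05). The share that rose was 65.7%, above the 28.9% of all tested genes, and the 20% that fell was near the 23.9% of all. The risers named by ratio were *Pglyrp4* and *Camp*, which encode antibacterial proteins and were at 0 and 0.06 FPKM in WT-veh. *Agr2*, needed for mucin folding, had the largest fall by ratio (563.9 ± 27.5 to 16.8 ± 8.3 FPKM).

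**Figure D4:**
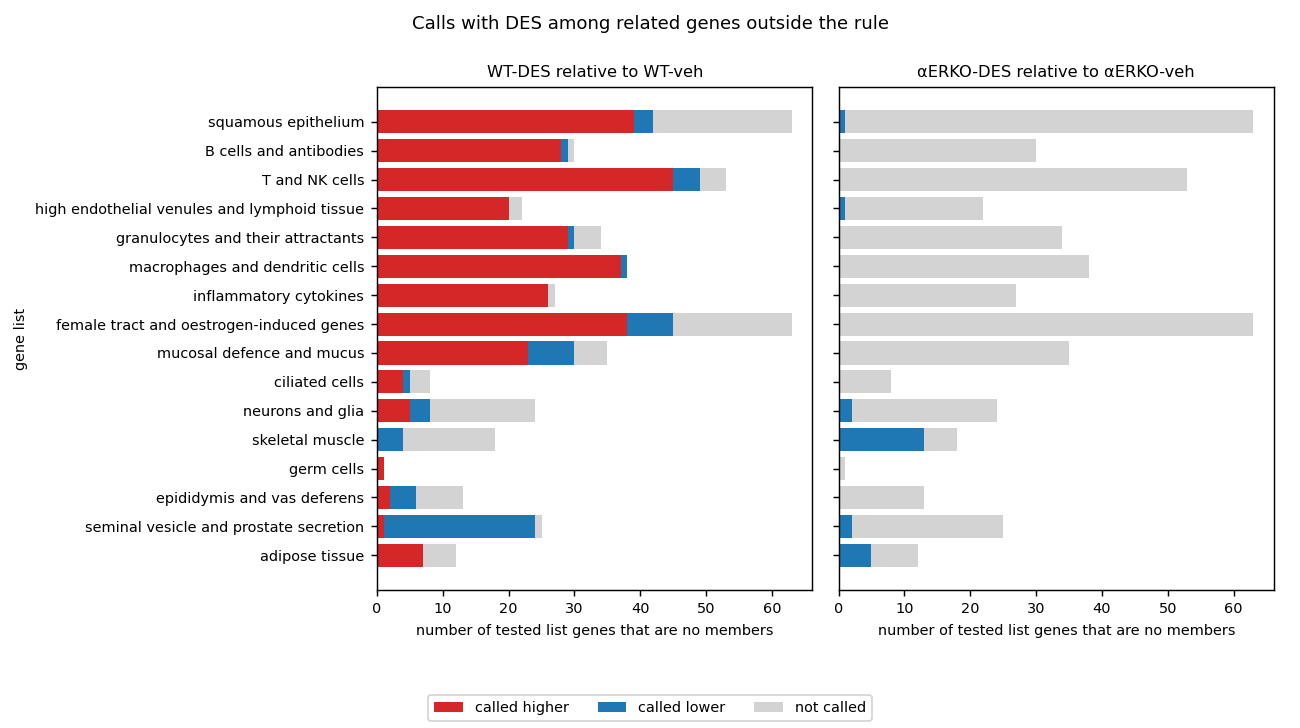
Numbers of tested genes outside the rule (x axis) in each of the 16 lists (y axis) that were called higher, called lower or not called with DES in WT (left) and in αERKO (right). In WT the immune lists are mostly red, such as 37 of 38 macrophage and dendritic genes, and in αERKO most of the 24 calls are lower values in skeletal muscle (13) and adipose genes (5).

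Lists that hold no member describe the other tissue in the samples. B cell genes rose in 28 of 30 tested genes in WT (1 fell), ciliated cell genes in 4 of 8 (1 fell; 2 and 1 with quantile normalization), neuron and glia genes in 5 of 24 (3 fell; 7 and 2 with equal totals, 2 and 3 with quantile normalization), adipose genes in 7 of 12 (3 without WT-veh 2, WT-DES 2 or WT-DES 4) and skeletal muscle genes in 0 of 18 (4 fell, or 7 without WT-veh 2). The 1 germ cell gene tested rose (0 without WT-DES 2 or 3). Of 25 SV and prostate secretion genes 23 fell in WT, and their sum was 3043 to 9526 FPKM in WT-DES against 70170 to 73559 FPKM in WT-veh. Adipose genes summed to 977.9 to 2327 FPKM in WT-DES, which overlapped WT-veh (254.9 to 1216 FPKM) and αERKO-veh (117.6 to 1250.5 FPKM), and to 42.5 to 89.1 FPKM in αERKO-DES. Over all lists 345 of 445 tested non-members were called in WT (288 higher and 57 lower), 24 in αERKO (0 higher and 24 lower, but 0 to 47 with 1 sample left out) and 344 in the test of the difference between genotypes (296 higher and 48 lower in WT). The background was 52.7% of all tested genes in WT, 1.49% in αERKO and 56.4% for the difference (29.6% higher and 26.9% lower).

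Genes beside the members in the genome were measured as well, since many of the members sit in clusters of related genes. In GENCODE M21 (GRCm38), 41 members had a position, on 17 chromosomes with 6 on chromosome 11, and *BC021614*, *LOC100038947* and *Pira6* were not matched. For the 40 members annotated as protein-coding, all but the pseudogene *Gm1966*, the nearest protein-coding gene of the table on either side was taken, which gave 80 genes, none of them a member, of which 57 were tested. With DES in WT 36 of the 57 rose (63.2%, against 28.9% of all tested genes) and 7 fell (12.3%, against 23.9%), with a median log2 change of 1.07. Many of those that rose belong to the family of the member beside them, so that neighbours share both position and kind. Named after their values were seen, *Clec4n* beside *Clec4d* went from 1.05 to 15.7 FPKM (log2 change 3.02), *Cxcl2* beside *Cxcl1* from 0.08 to 19.6 FPKM (2.93) and *Oas2* beside *Oas3* from 1.45 to 12.4 FPKM (2.40). Exceptions were *Lgals9* beside *Nos2*, which fell from 460.3 to 96.8 FPKM, and *Trim27* beside *Gpx5*, from 31.8 to 15.6 FPKM. The members *Cd300lb* and *Cd300lf* lie 181828 bases apart on chromosome 11.

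Family resemblance also bears on how surely a read can be given to a member. Of the 41 matched genes, 28 shared no run of 100 bases of any of their transcripts with another gene. Runs shared with any other gene made up 84.1% for *Pira2*, 30.6% for *Krt6a*, 22.96% for *Sirpb1a* and 12.3% for *Fpr2*. The genes that shared the most runs with them were *Gm15922*, *Krt6b*, *Sirpb1c* and *Gm5966*, in this order. The levels of these 4 members, and of *Pira6*, are uncertain to the extent that fragments were divided between copies.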

How the data were processed

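The authors mapped paired reads of 126 nt with a quality above 20 to mm10 with TopHat2 2.0.4, assembled them with Cufflinks 2.0.2 and deposited FPKM of 31274 genes with 2 decimals. The gene annotation and any scaling between libraries are not given in the sources used here, and FPKM holds no depth, so precision rests on the spread between samples.

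The member genes and the gene lists were chosen with earlier results of these data known. FPKM values were used as deposited for levels. Tests used log2(FPKM + 1) of the 15988 genes whose mean FPKM exceeded 1 in some group, in 1 limma 3.58.1 model (R 4.3.3) of all 16 samples, with trended eBayes, and p-values were adjusted by Benjamini-Hochberg across all tested genes. A gene was called at an adjusted p up to 0.05 if its group means differed by 1.5-fold or more and one of them exceeded 1 FPKM. For the difference between genotypes a 1.5-fold difference was required. A log2 change on this scale understates the change of low genes. The steps were tested on simulated data.

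Genes named are the 30 members with the highest mean, those nearest the limits, the highest of each group, those in a list or beside another member and, for each list that holds a member, the 2 largest rises and the largest fall by ratio of means among called genes (genes listed at 0 in WT-veh come first, though others rose more on the log2 scale); *Esr1* was added, and other genes are said to be chosen after their values were seen. Lists that hold no member are given by counts, and 1 member is counted but its values are not reported here. Positions and shared 100-base runs came from GENCODE M21, and promoters from RefSeq GRCm38.p6. Alternatives were other limits, 3 scalings, a pseudocount of 0.1, no minimum on FPKM, no variance trend, a replicate block and leaving out each sample. Tables were made in Python 3.11.15 (numpy 2.4.6, pandas 2.3.3) and figures in matplotlib 3.10.9.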

Additional observations from a re-analysis of the deposited data

Results flagged for a closer look

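In 16 of 72 comparisons of 4 samples, 1 sample lay far from the others by Dixon's test. Chance flags about 1 in 20 groups of independent values. The WT-DES values of the 44 members, which gave 13 of the 16, were chosen by the rule and vary together, so that rate is no measure for them. WT-DES sample 1 was far above the others in 11, at 34.2 FPKM for *Ngp*, 32.4 for *Clec4d*, 29.4 for *Csf3r*, 33.4 for *Chil1*, 25.0 for *Slfn4*, 22.5 for *Cd300lf*, 15.4 for *Cd200r3* and 3.59 for *Ahrr*, and, outside the members, at 5.78 for *Trem1*, 33.8 for *Chil3* and 20.9 for *Il1f9*. WT-DES sample 4 was far above for *Krt13* (150.3 FPKM) and *Krt6a* (72.2 FPKM) and far below for *Sirpb1a* (3.24 FPKM) and *Gpr35* (2.85 FPKM). WT-DES sample 2 was far above for *Akr1c19* (6.30 FPKM).

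Of the 25 non-members that the naming rule gave, the change with DES differed between genotypes for 24, with 0.0364 as the highest adjusted p (limma, interaction), and was not called different for *Ccl11*. All but *Esr1* were named for their change in WT, which bears on the same difference, and 56.4% of all tested genes were called for it, so nothing is read from this count. Genes named after their values were seen are not counted here. The values are the log2 change with DES in αERKO subtracted from that in WT. For 18 it was positive, at 1.96 for *Sprr2i*, 1.80 for *Sprr2e*, 7.57 for *Sprr2f*, 1.60 for *Ctla4*, 2.21 for *Cd6*, 5.51 for *Ubd*, 1.21 for *Ccl20*, 1.32 for *Trem1*, 2.09 for *Cxcr2*, 2.31 for *Chil3*, 1.22 for *Il12b*, 1.70 for *Il1f6*, 2.01 for *Il1f9*, 1.04 for *Pglyrp4*, 2.85 for *Camp*, 2.03 for *Spag11b*, 3.58 for *Cst11* and 1.75 for *Esr1*. For 6 it was negative, at −5.39 for *Gsdma*, −2.57 for *Skap1*, −1.55 for *Lyz1*, −1.86 for *Prss28*, −5.27 for *Agr2* and −3.05 for *Defb15*.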

How the results depend on the processing

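The number of member genes rests on the limits. It was 13 with an upper limit of 0.25 FPKM, 156 with 1 FPKM and 86 with 0.5 FPKM applied to group means, and 148 with a lower limit of 1 FPKM, 12 with 5 FPKM and 187 with 2 FPKM applied to the WT-DES mean. With quantile normalization 17 genes met the rule, all of them members. With median-ratio scaling 55 genes met it, all 44 members among them, and with equal totals without the 20 highest genes 63, of which 41 are members. Leaving out each sample gave 44 to 60 genes, the most without WT-DES sample 1 or 3. The scalings moved the median log2 change of all genes in WT to 0.12, 0.38 and −0.08 for median-ratio, equal totals and quantile.

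Calls of list genes in WT and for the difference between genotypes were within 1.5 times under the alternatives, except for small lists: quantile normalization gave 3 ciliated (13 with no minimum on FPKM), 5 neuron and 0 germ cell genes (9 with no minimum), and leaving out each sample gave 5 to 11 neuron (5 without WT-veh 1), 0 to 1 germ cell (0 without WT-DES 2 or 3) and 3 to 8 adipose genes (3 without WT-veh 2, WT-DES 2 or WT-DES 4), and 7 skeletal muscle genes without WT-veh 2. The 24 calls in αERKO became 0 with quantile normalization, 15 with no minimum on FPKM and 0 to 47 without 1 sample: 0 without WT-veh 3, αERKO-veh 2 or 4, or αERKO-DES 1, 2 or 3, 12 without WT-veh 1, 15 without αERKO-DES 4, 38 without αERKO-veh 1 and 47 without WT-DES 1. *Ccl11* lost its call in WT with equal totals and with quantile normalization. The replicate numbers do not pair the samples: the deviations of same-numbered samples correlated at −0.01 to 0.08 in WT and −0.02 to 0.28 in αERKO, and the best partner was the same number for 1 of 4 samples in WT and 2 of 4 in αERKO. With the replicate block 343, 27 and 337 list genes were called in WT, in αERKO and for the difference. Depth is unknown, so no limit of detection can be given for values near 0.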
